A study of Mus musculus with 9 samples.

Results

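Blood stem cells that carried the surface proteoglycan Syndecan-2 were compared with stem cells of the same sort that did not, in 6 of the 9 libraries of the series. All cells came from the femurs and tibias of C57BL/6J mice aged 10 weeks, for which no transgene or treatment is labelled, and 10000 sorted cells went into each replicate. The gate, KSL CD34-, keeps cells with c-Kit and Sca-1 that lack both lineage markers and CD34, and it was split by antibody into 3 Syndecan-2+ and 3 Syndecan-2- libraries, while 3 Parent libraries hold the undivided gate. The mice are male in the extraction protocol and of mixed sex in the series description. Whether replicates are separate animals is not stated, so p-values measure the spread between these libraries, which may be technical.

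Syndecan-2 is a single-pass membrane protein whose heparan sulfate chains bind growth factors and matrix at the cell surface. Long-term repopulating stem cells are the rare, mostly quiescent cells at the top of blood formation, and the KSL CD34- gate of adult mouse marrow is enriched for them but mixed. Because RNA was read from pools, fewer cells of a type and less RNA per cell cannot be told apart in any value below.

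Values are reads scaled to a common total (CPM), summed per gene and rescaled between libraries by a trimmed mean (TMM), and are given library by library in the order of replicates 1 to 3. Fold changes are log2 of rescaled CPM plus 1, Syndecan-2+ minus Syndecan-2-, with the standard error (SE), from limma with replicates blocked by number, and a gene is called at a Benjamini-Hochberg adjusted p under 0.05 over all genes. One CPM stood for 15.5 to 20.6 reads, and 3 reads for 0.146 to 0.194 CPM, which sets the reach of these values, for counting error only. Of 13998 genes tested, 4640 were called (33.1%), with 2291 higher (16.4%) and 2349 lower (16.8%) in Syndecan-2+ cells. At 2-fold or more on the log2 scale, 668 were higher and 458 lower. Among the called genes, 4483 lie outside the usual lists of stem, progenitor, megakaryocyte-erythroid and immunoglobulin genes, and it is those that are described here. Rescaling mattered for the balance of calls: with CPM as deposited the median log2 change of all genes was 0.10 in place of 0.00 and the calls were 3436 higher and 1551 lower.

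The sort could be read in its own gene. Sdc2 stood at 0.481, 0.218 and 0.332 CPM in Syndecan-2- libraries, at 1.76, 2.05 and 1.41 CPM in Parent and at 4.97, 4.08 and 4.15 CPM in Syndecan-2+ libraries. The 3 populations did not overlap, and Syndecan-2+ exceeded Syndecan-2- by 4.06 CPM on average (exact two-sided permutation test, p = 0.1, the smallest that 3 against 3 libraries allow). Transcripts of the gate were present in all libraries, Kit at 163.1 to 259.3 CPM and Ly6a, which encodes Sca-1, at 4.36 to 8.17 CPM. Cd34 transcript, whose protein the gate excludes, was at 199.9 to 225.0 CPM in Syndecan-2- and 36.0 to 47.6 CPM in Syndecan-2+ libraries. Replicate 2 of each population had high heat shock transcripts, with summed levels of 10190 to 13720 CPM against 3288 to 4856 CPM in the other 6 libraries. Among 5 sex-linked genes, Xist was at 0.621 CPM at most, and their sum, Y-linked genes included, was 69.9 to 78.9 CPM across the libraries. The sex of the mice was not tested.

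Tgm2, Mtss1l and Mmrn1 were among the largest rises. Tgm2, transglutaminase 2, which cross-links proteins inside and outside cells (chr2:158116402-158146436), stood at 5.32, 4.47 and 4.99 CPM in Syndecan-2- and 69.0, 70.5 and 85.1 CPM in Syndecan-2+ libraries, a ratio of means of 15.2 and a log2 change of 3.67 (SE 0.09, adjusted p = 3.09e-17). The populations were far apart, with Parent between them at 25.2 ± 3.81 CPM (SD, n = 3). Mtss1l, an actin- and membrane-binding protein, was at 1.85, 1.53 and 2.66 against 28.8, 26.9 and 37.9 CPM (log2 change 3.42, SE 0.14, adjusted p = 3.73e-14). Mmrn1, multimerin 1, a factor V-binding protein of platelets and endothelium (chr6:60924976-60989378), was at 11.1, 12.7 and 11.1 against 101, 96.3 and 116 CPM (log2 change 3.06, SE 0.09, adjusted p = 9.83e-16). Every replicate of these genes kept the order Syndecan-2-, Parent, Syndecan-2+.

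Aldh1a1, which oxidises retinaldehyde to retinoic acid (chr19:20601961-20643462), was at 0.923, 0.976 and 1.27 CPM in Syndecan-2- and 20.6, 17.4 and 18.1 CPM in Syndecan-2+ libraries (log2 change 3.26, SE 0.15, adjusted p = 6.35e-13). Cyp26b1, which degrades retinoic acid, was at 0.214, 0 and 0 against 3.89, 3.85 and 4.36 CPM (adjusted p = 1.19e-08). Between the sorted populations, Aldh1a1 and Cyp26b1 transcripts were thus detected mainly in Syndecan-2+ libraries. The retinoic acid receptor gene Rara went the other way, at 22.4, 18.3 and 25.0 against 6.51, 6.74 and 8.30 CPM (log2 change -1.48, SE 0.12, adjusted p = 2.29e-09). Of 38 aldehyde dehydrogenase, glutathione transferase and cytochrome P450 genes tested, 19 rose and 2 fell (Aldh1b1 and Gsto1), so 55.3% were called, against 33.1% of all genes. The median log2 change was 0.38 against 0.00 for all genes, and 5 of the 19 had a Syndecan-2- mean under 1 CPM. Without replicate 1 of Syndecan-2+, 11 of them were called higher.

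The other large rises were Myom1 and Obsl1 (sarcomeric M-band and obscurin-like proteins), Trim47 (a tripartite-motif ubiquitin ligase), Amotl2 (an angiomotin that binds YAP), Grb10 (an imprinted adaptor that restrains insulin receptor signalling), Gda (guanine deaminase) and Tns2 (a tensin of integrin adhesions). Their Syndecan-2+ means ran from Amotl2 at 9.27 CPM to Grb10 at 43.7 CPM, and their log2 changes from 2.65 to 3.14. Meg3, the maternally expressed long noncoding RNA of the Dlk1-Dio3 imprinted region (chr12:109541001-109571726), was at 0.428, 0.274 and 0.500 against 9.77, 8.03 and 10.0 CPM (adjusted p = 1.84e-10). Rian, a further maternal noncoding RNA of that region, and Dlk1, its paternally expressed coding gene, were named after their values were seen. Rian was at 0.0561, 0 and 0.503 against 2.78, 3.67 and 4.66 CPM (adjusted p = 3.06e-07), and Dlk1 at 0.252, 0.0546 and 0.277 against 1.27, 0.668 and 1.43 CPM (adjusted p = 0.00764). Igf2r, an imprinted gene on chromosome 17 looked up with them, was at 18.3 and 20.1 CPM and not called (adjusted p = 0.282).

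**Figure D1:**
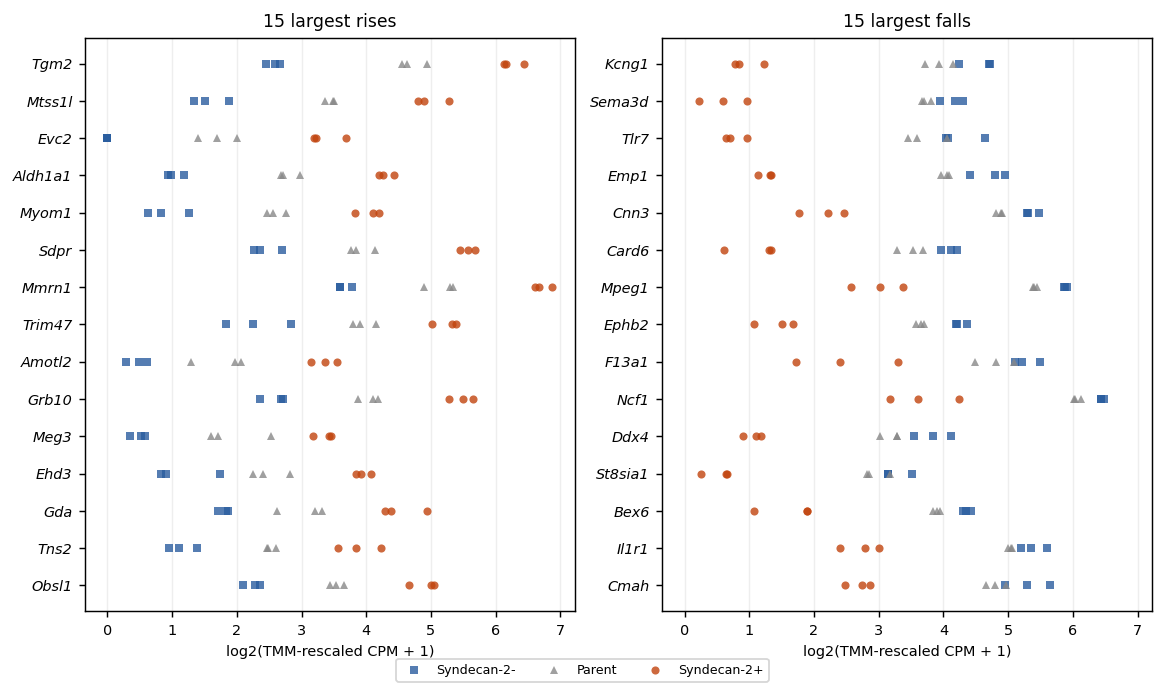
The 15 largest rises and 15 largest falls outside the usual gene lists, 1 point per library on a scale of log2 of rescaled CPM plus 1. Squares are Syndecan-2-, triangles Parent and circles Syndecan-2+ libraries, and the squares and circles of a gene do not overlap, as the rule for choosing these genes requires.

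Several cavin coat genes of caveolae, the small flask-like pits of the plasma membrane, were higher in Syndecan-2+ cells. Sdpr, which encodes the coat protein cavin-2 (chr1:51289126-51302960), was at 3.80, 4.15 and 5.48 CPM in Syndecan-2- and 46.7, 42.8 and 50.4 CPM in Syndecan-2+ libraries (log2 change 3.13, SE 0.12, adjusted p = 1.54e-14). Ehd3, a membrane-remodelling ATPase related to the caveolar Ehd2, was at 2.35, 0.873 and 0.776 against 15.8, 13.4 and 14.2 CPM (adjusted p = 2.79e-10). The remaining genes of this kind were looked up after these values were seen, so their direction is no independent evidence. Ptrf, the coat protein cavin-1, was at 8.93, 9.17 and 9.86 against 60.4, 56.3 and 61.4 CPM (log2 change 2.55, SE 0.08, adjusted p = 1.01e-15). Prkcdbp (cavin-3), Ehd2 and Cav2 were also called higher, at Syndecan-2+ means of 6.17, 1.46 and 2.81 CPM, whereas Ehd4 was at 25.3 and 25.6 CPM and not called (adjusted p = 0.918). The caveolin gene Cav1, looked up with them, is not among the listed genes and could not be read.

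Matrix genes gave the highest median of the 47 function lists. Of 59 genes on the list 27 were tested, of which 17 rose, 3 fell and 7 were not called, with a median log2 change of 0.79. The share called was 74.1%, against 33.1% of all genes. Low genes enter a test mostly through the population that expresses them, and 6 of the 17 had a Syndecan-2- mean under 1 CPM. The basement membrane collagen chains rose together: Col4a1 was at 5.40, 4.91 and 7.20 CPM in Syndecan-2- and 26.1, 27.0 and 31.2 CPM in Syndecan-2+ libraries (log2 change 2.10, SE 0.11, adjusted p = 1.74e-12). Col4a2, its partner chain in the type IV collagen trimer, was at 4.49, 5.51 and 5.54 against 29.4, 29.1 and 28.3 CPM (log2 change 2.28, SE 0.11, adjusted p = 6.02e-13). Both were at least 3 times as high in every Syndecan-2+ library as in any Syndecan-2- library. Col16a1, a fibril-associated collagen, was at 3.53, 3.60 and 4.65 against 23.2, 22.0 and 23.3 CPM, and the small proteoglycan gene Bgn at 0.543, 0.996 and 0.637 against 8.61, 7.74 and 8.67 CPM (adjusted p = 5.19e-12 and 1.97e-09). Lama5 and Col18a1, a laminin chain and a basement membrane collagen, reached 5.63 and 4.78 CPM. Fbn1, fibrillin 1, fell from 3.58 to 1.58 CPM (adjusted p = 0.00464).

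One call on the list leaned on a single library. Col1a2, a chain of the fibrillar type I collagen of bone, was at 1.97, 2.33 and 14.9 CPM in the Syndecan-2+ libraries, and Col1a1 reached 20.1 CPM in its highest library. The summed level of 4 listed stromal marker genes was 42.6 CPM in replicate 3 of Syndecan-2+ against 12.1 and 12.9 CPM in the other Syndecan-2+ libraries and 32.3 to 36.3 CPM in Syndecan-2- libraries. Pdgfrb, a stromal receptor on that list named after its values were seen, fell from 33.5 to 8.41 CPM (adjusted p = 1.40e-11). The part of stromal cells in the collagen values was not tested.

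The promoters of Col4a1 and Col4a2 face away from each other, and the start sites in the table lie at chr8:11312826 on the minus strand and chr8:11312805 on the plus strand. Evc2 and Evc, whose proteins form a complex at the base of primary cilia that takes part in hedgehog signalling, are likewise head to head on chromosome 5. Evc2 (chr5:37338499-37425055) was at 0 CPM in all 3 Syndecan-2- libraries and at 8.18, 8.38 and 11.9 CPM in those with Syndecan-2. With 3 reads per library as the floor, its Syndecan-2+ mean was at least 58.2-fold higher. Evc, named after its values were seen, was at 0 in every Syndecan-2- library and at 4.10, 3.04 and 4.54 CPM in Syndecan-2+ libraries (adjusted p = 1.49e-08). Their RefSeq promoter windows (GRCm38.p6, 250 bases before to 50 after the start, 5′ to 3′ on the gene's strand, CG dinucleotides in capitals) are shown because both genes of each pair were called higher. The lines are Col4a1 (chr8:11312777-11313076, minus strand), Col4a2 (chr8:11312555-11312854, plus strand), Evc (chr5:37336832-37337131, minus strand) and Evc2 (chr5:37338228-37338527, plus strand).
Col4a1: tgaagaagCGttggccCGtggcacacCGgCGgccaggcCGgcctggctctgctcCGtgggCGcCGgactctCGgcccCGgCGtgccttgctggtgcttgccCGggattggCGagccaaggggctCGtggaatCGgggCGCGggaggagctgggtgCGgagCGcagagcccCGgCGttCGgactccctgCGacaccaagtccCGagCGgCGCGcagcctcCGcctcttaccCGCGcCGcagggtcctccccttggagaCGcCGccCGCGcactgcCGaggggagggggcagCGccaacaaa
Col4a2: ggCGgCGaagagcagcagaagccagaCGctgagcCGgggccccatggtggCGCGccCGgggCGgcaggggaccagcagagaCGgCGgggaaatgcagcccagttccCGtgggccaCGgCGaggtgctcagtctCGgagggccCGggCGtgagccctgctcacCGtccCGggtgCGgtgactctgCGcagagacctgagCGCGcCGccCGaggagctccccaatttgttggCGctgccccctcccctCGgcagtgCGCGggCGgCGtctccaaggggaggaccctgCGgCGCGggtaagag
Evc: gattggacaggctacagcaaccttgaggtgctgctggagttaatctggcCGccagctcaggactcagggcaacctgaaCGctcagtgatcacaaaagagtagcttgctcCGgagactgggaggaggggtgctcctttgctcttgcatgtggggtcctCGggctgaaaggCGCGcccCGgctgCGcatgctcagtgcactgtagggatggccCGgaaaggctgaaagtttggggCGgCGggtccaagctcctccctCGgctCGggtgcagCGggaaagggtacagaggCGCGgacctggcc
Evc2: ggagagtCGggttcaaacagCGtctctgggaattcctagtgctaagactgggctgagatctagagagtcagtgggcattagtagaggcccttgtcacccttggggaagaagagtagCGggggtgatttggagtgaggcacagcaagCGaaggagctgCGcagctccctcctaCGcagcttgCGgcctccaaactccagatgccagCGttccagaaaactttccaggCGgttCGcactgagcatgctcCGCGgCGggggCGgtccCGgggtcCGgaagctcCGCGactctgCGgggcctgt
The 4 windows hold 37, 33, 16 and 19 CG dinucleotides, against a median of 7 over 32851 windows of the same length. As many as in Col4a1 were found in 5.58% of all windows, and as many as in Evc in 33.0%. The Col4a1 and Col4a2 windows overlap around both start sites. Of 820 head-to-head pairs of tested protein-coding genes with starts within 1000 bases, 45 had both genes called, 39 of them in the same direction and 6 in opposite directions. That is 5.49% of the pairs. Of the 1630 genes in all 820 pairs 18.2% were called, against 35.9% of protein-coding genes and 33.1% of all genes. At 2-fold or more there were 4 such pairs higher, Col4a1 with Col4a2, Obsl1 with Inha, P3h4 with Fkbp10 and Sptbn4 with Blvrb, and 1 lower, Pecam1 with Milr1, all named after their values were seen. Evc and Evc2 start more than 1000 bases apart and are not among them.

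Enzymes that remodel matrix moved in both directions, with 10 of 27 metalloproteases and inhibitors higher and 5 lower (55.6% called, against 33.1% of all genes). Of the 10 higher, 5 had a Syndecan-2- mean under 1 CPM, and of the 5 lower, 1 had a Syndecan-2+ mean under 1 CPM. Timp3, an inhibitor held in the matrix, was at 1.35, 4.21 and 2.46 against 15.5, 23.0 and 22.0 CPM (log2 change 2.58, SE 0.15, adjusted p = 1.69e-11). Of 23 cadherin, claudin, connexin and junction genes tested, 10 rose and 1 fell (47.8% called), with a median of 0.42, and 3 of the 10 had a Syndecan-2- mean under 1 CPM. F11r, junctional adhesion molecule A, ranged from 1.91 to 3.05 and from 10.3 to 11.9 CPM, and the scaffold gene Tjp1 at 2.94, 3.00 and 2.22 against 9.79, 9.55 and 11.8 CPM (adjusted p = 4.64e-09 and 7.99e-08). The protocadherin gene Pcdh7 had Syndecan-2+ values of 16.5 to 20.6 CPM and Syndecan-2- values of 4.13 to 5.89 CPM.

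Single regulators of the cytoskeleton moved in both directions. Higher were Arhgef12, a guanine nucleotide exchange factor, at 16.2, 12.9 and 16.1 against 61.2, 49.1 and 63.2 CPM, and Arhgap29, a GTPase-activating protein, at 0.686, 1.19 and 0.665 against 11.3, 11.1 and 8.29 CPM (adjusted p = 6.10e-14 and 7.11e-10). Lower were Dock10 at 160, 182 and 167 against 66.3, 62.0 and 53.7 CPM, and Arhgap30 at 157, 151 and 154 against 70.6, 76.2 and 63.1 CPM (adjusted p = 2.41e-13 and 3.45e-12). Rac2, the blood cell form of Rac, fell from 101 ± 2.00 to 65.0 ± 2.93 CPM (adjusted p = 1.11e-08). Among motor and filament genes 12 of 40 rose and 14 fell (65.0% called, against 33.1% of all genes). Myh10, nonmuscle myosin IIB, was at 4.15, 4.58 and 2.70 against 26.5, 26.6 and 27.2 CPM, and the calponin gene Cnn3 at 38.5, 38.1 and 43.5 against 3.66, 4.52 and 2.41 CPM (adjusted p = 3.63e-12 and 3.68e-14). Tpm4, a tropomyosin, fell and Sept8, a septin, rose, at log2 changes of -1.71 and 1.73.

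**Figure D2:**
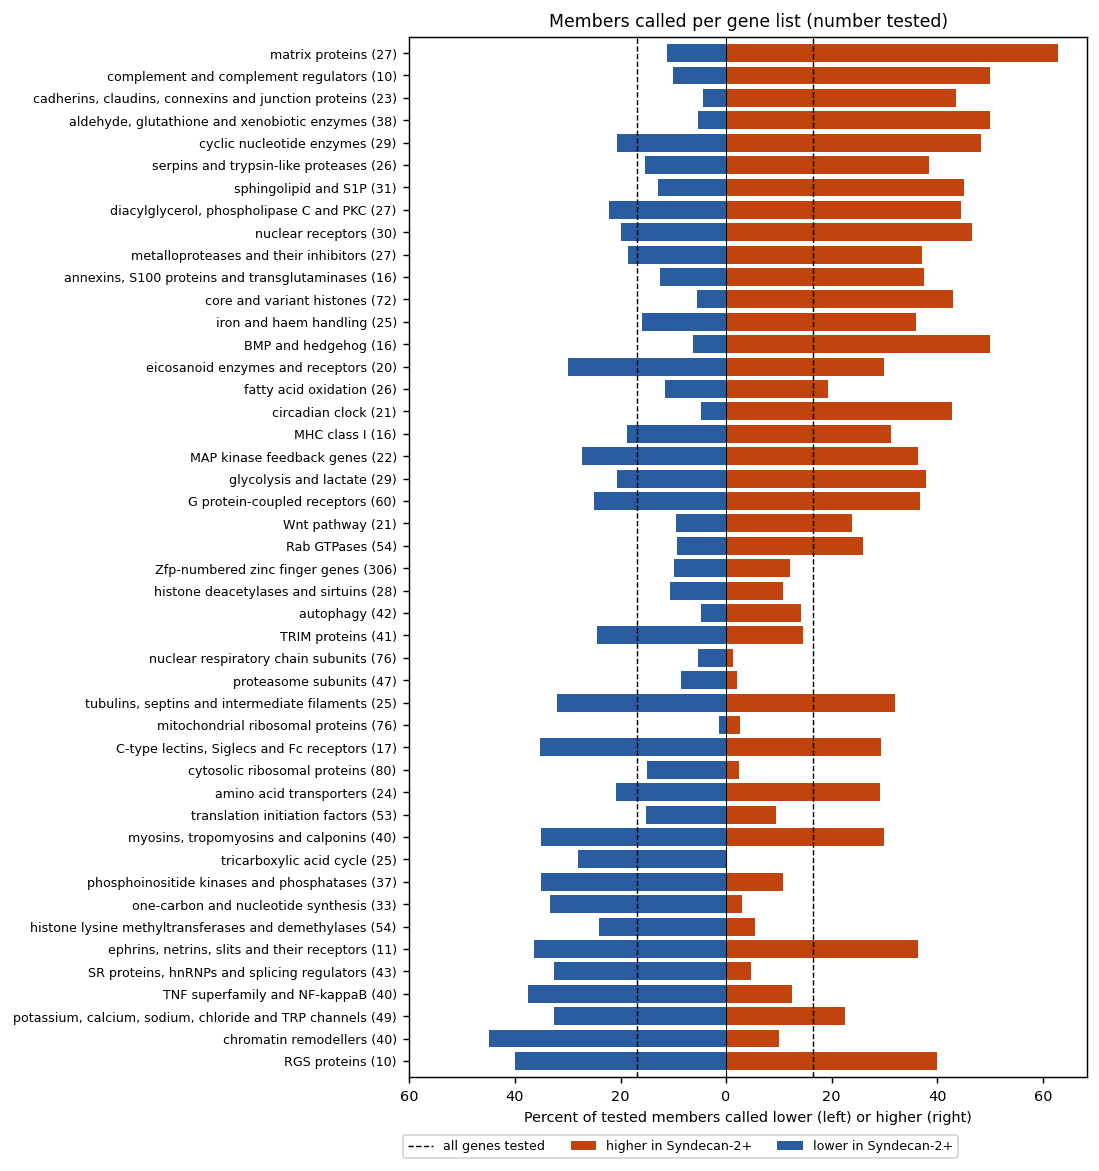
Share of tested members called higher (right, in percent) or lower (left) in Syndecan-2+ cells for 46 of the 47 function lists, ordered by median log2 change, with the number tested in parentheses. Dashed lines give the share of all genes called, 16.4% higher and 16.8% lower. Matrix proteins head the plot, and nuclear respiratory chain, mitochondrial ribosome and proteasome lists have the shortest bars.

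The deepest falls outside the usual lists were in Kcng1, Sema3d, Tlr7 and Emp1. Kcng1, a silent subunit that modifies voltage-gated potassium channels (chr2:168260117-168281132), was at 25.0, 25.3 and 18.0 CPM in Syndecan-2- and 1.33, 0.712 and 0.783 CPM in Syndecan-2+ libraries, a log2 change of -3.61 (SE 0.14, adjusted p = 1.66e-14). Sema3d, a secreted guidance cue (chr5:12383385-12588948), was at 18.7, 17.1 and 14.5 against 0.512, 0.950 and 0.171 CPM (adjusted p = 1.58e-13). Tlr7, the endosomal receptor for single-stranded RNA, was at 15.5, 15.8 and 23.9 against 0.564, 0.950 and 0.630 CPM (adjusted p = 4.31e-13), and Emp1, a tetraspan membrane protein, at 26.7, 20.2 and 30.0 against 1.49, 1.19 and 1.52 CPM (adjusted p = 8.92e-15). All of these were at or near 1 CPM in Syndecan-2+ libraries while Parent stayed closer to Syndecan-2-, for Kcng1 at 14.4 ± 2.31 CPM.

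Immune effector and sensor genes were among the other falls on that list: Mpeg1 (the pore-forming protein perforin-2), Ncf1 (a cytosolic NADPH oxidase subunit), Il1r1 (the interleukin-1 receptor), Card6 (a CARD-domain protein) and F13a1 (coagulation factor XIII A chain, a monocyte marker on the lists used here). Ncf1 was at 86.6 ± 1.46 against 12.4 ± 5.08 CPM (SD, n = 3 each), and Il1r1 at 39.9, 35.9 and 47.6 against 7.02, 4.27 and 5.94 CPM (adjusted p = 7.67e-13 and 4.79e-14). The summed level of 12 listed monocyte and macrophage markers was 104.3 to 124.9 CPM in Syndecan-2- and 52.0 to 59.9 CPM in Syndecan-2+ libraries, with Adgre1 at 0.299 and 0.0725 CPM. F13a1, chosen for its large fall, is part of this sum at means of 37.9 and 5.17 CPM. Csf1r on that list is also on the progenitor list. Of the tested markers on that list 6 were lower, while Lyz2, Axl and Slc40a1 were higher, Lyz2 at 24.2 against 33.1 CPM. For 10 listed dendritic cell markers the sums were 408.4 to 414.8 and 79.9 to 82.8 CPM, with Siglech at 0.128 and 0 CPM, and the list holds Flt3 and Tcf4, which are also on the progenitor list. On it 4 genes were lower, while Clec9a and Zbtb46 were higher, at 0.293 against 1.77 and 0.489 against 2.80 CPM. Neutrophil markers summed to 2.24 CPM at most. The part of other cells in these falls was not tested. Other falls were Ephb2 (an ephrin receptor tyrosine kinase), Ddx4 (the germ-line RNA helicase Vasa), Bex6, and the sialic acid enzymes St8sia1 and Cmah. Cmah, which converts one sialic acid form to another, was at 49.1, 38.1 and 30.1 against 5.69, 6.27 and 4.57 CPM (adjusted p = 2.71e-14). B4galnt1, which like St8sia1 builds complex gangliosides, fell with it, at 40.4, 46.9 and 39.4 against 16.1, 21.1 and 17.3 CPM.

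Of 20 listed eicosanoid genes tested, 6 rose and 6 fell, and those described other than Ptgs1, Tbxas1 and Ptger2 were named after their values were seen. Ptgs1, cyclooxygenase 1 (chr2:36230426-36252272), was at 5.09, 4.68 and 6.51 against 30.6, 27.0 and 29.2 CPM (log2 change 2.23, SE 0.11, adjusted p = 1.21e-12). Tbxas1, thromboxane A synthase, was at 24.6, 21.3 and 21.6 against 66.7, 62.4 and 68.1 CPM (adjusted p = 5.47e-13), and Pla2g4a, the phospholipase that releases arachidonic acid, at 13.6, 16.6 and 16.8 against 29.8, 27.9 and 27.6 CPM (adjusted p = 1.01e-06). These 3 successive enzymes on the route to thromboxane were higher in every Syndecan-2+ library. The thromboxane receptor gene Tbxa2r fell from 9.30 to 4.72 CPM, and the prostaglandin E2 receptor genes Ptger2 and Ptger4 fell from 5.62 to 0.502 and from 25.7 to 16.2 CPM, while Ptger3 rose from 11.6 to 17.0 CPM (adjusted p = 4.41e-05, 6.86e-09, 0.000123 and 0.000519). The summed megakaryocyte and platelet markers were at 69.7 to 78.4 CPM in Syndecan-2- and 274.9 to 295.0 CPM in Syndecan-2+ libraries, and their part was not tested.

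Sphingosine 1-phosphate guides stem cells between marrow and blood. Of its receptors, S1pr1 was at 4.76, 4.59 and 4.65 against 10.8, 13.1 and 14.3 CPM and S1pr3 at 8.66, 6.22 and 5.54 against 0.615, 1.42 and 0.368 CPM, so the receptors moved in opposite directions (adjusted p = 1.84e-07 and 3.44e-08). Sgpl1, the lyase that destroys the lipid, fell from 20.1 to 7.91 CPM, and Spns2, its exporter, rose from 56.8 to 89.7 CPM. Sphingomyelin synthase Sgms1 was at 21.2, 18.0 and 18.4 against 45.8, 41.8 and 53.3 CPM. In all, 14 of 31 sphingolipid genes rose and 4 fell (58.1% called, against 33.1% of all genes). The count of rises went to 8 or 9 without any one of replicate 2 of Syndecan-2-, replicate 3 of Syndecan-2-, replicate 2 of Syndecan-2+ or replicate 3 of Syndecan-2+.

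**Figure D3:**
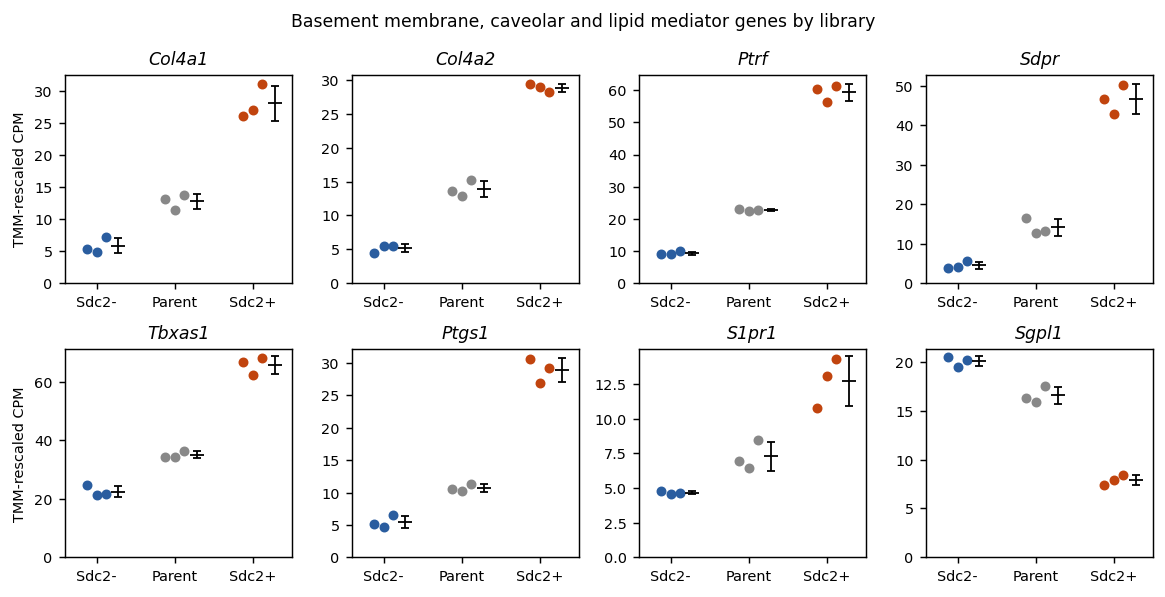
Rescaled CPM by library for Col4a1, Col4a2, Ptrf, Sdpr, Tbxas1, Ptgs1, S1pr1 and Sgpl1, with the mean and SD of 3 libraries beside the points and each axis starting at 0. In 7 of these 8 genes the Syndecan-2+ libraries are highest, and Sgpl1 is the exception.

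Energy metabolism differed little in most subunits. Of 76 nuclear genes of the respiratory chain 1 rose and 4 fell (6.58% called), and of 25 tricarboxylic acid cycle genes 7 fell and none rose in the rescaled values, but 4 rose and 3 fell with CPM as deposited. Idh2, mitochondrial isocitrate dehydrogenase, fell from 99.8 to 71.7 CPM (adjusted p = 1.23e-06). In glycolysis, 11 of 29 genes rose and 6 fell (58.6% called). The glucose transporter gene Slc2a3 was at 26.1, 34.5 and 31.4 against 49.7, 64.5 and 59.5 CPM and the hexokinase gene Hk1 at 78.8, 83.9 and 81.6 against 144, 144 and 124 CPM (adjusted p = 9.58e-10 and 4.69e-09). The hexokinase gene Hk3 and the glycolytic mutase gene Pgam1 went down, from 23.4 to 10.7 and from 65.0 to 32.7 CPM. Of 33 one-carbon and nucleotide synthesis genes 11 fell and 1 rose (36.4% called, near the share of all genes). With CPM as deposited 7 fell and 7 rose. Among the falls was Phgdh, the first enzyme of serine synthesis, at 32.7, 39.0 and 39.6 against 22.5, 25.3 and 20.2 CPM. The transferrin receptor 2 gene Tfr2 was at 19.6, 20.1 and 15.3 against 48.0, 49.5 and 47.9 CPM (adjusted p = 4.93e-11), and the haem enzyme gene Blvrb at 2.94, 2.67 and 2.77 against 8.25, 7.88 and 9.03 CPM, while the erythroid marker sum was 79.2 to 98.3 CPM in Syndecan-2- and 243.9 to 261.8 CPM in Syndecan-2+ libraries and its part was not tested.

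Signalling through nitric oxide and cyclic nucleotides was represented by both subunits of soluble guanylate cyclase. Gucy1a3 was at 4.97, 4.42 and 4.99 against 24.8, 23.1 and 23.6 CPM and Gucy1b3 at 0.695, 0.928 and 1.55 against 5.60, 5.10 and 6.36 CPM (adjusted p = 3.84e-12 and 4.04e-07). Phosphodiesterases that degrade its product rose as well, with Pde5a from 5.67 to 12.4 CPM and Pde10a from 1.09 to 7.60 CPM, and the adenylate cyclase gene Adcy6 went from 17.6 to 45.4 CPM. Of 29 cyclic nucleotide genes 14 rose and 6 fell (69.0% called, against 33.1% of all genes). Among G protein-coupled receptors 22 of 60 rose and 15 fell (61.7% called). Of the 22, 7 had a Syndecan-2- mean under 1 CPM, and of the 15, 2 had a Syndecan-2+ mean under 1 CPM. F2r, the thrombin receptor, was at 33.8, 26.1 and 39.7 against 72.7, 71.2 and 83.4 CPM, and the adhesion receptor gene Adgrg3 at 87.3, 83.3 and 79.0 against 22.8, 24.3 and 17.1 CPM (adjusted p = 3.65e-11 and 2.73e-14).

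Phosphoinositide and NF-kappaB genes leaned lower. Of 37 phosphoinositide kinases, phosphatases and their adaptors 13 fell and 4 rose (45.9% called, against 33.1% of all genes). With CPM as deposited 11 of them fell and 9 rose. Inpp5d, the blood cell phosphatase SHIP1, was at 146, 165 and 174 against 84.8, 86.3 and 88.2 CPM (adjusted p = 9.37e-11). Inppl1, which encodes the related SHIP2, rose from 2.76 to 8.41 CPM. Of 40 genes of the TNF superfamily and NF-kappaB 15 fell and 5 rose, and 9 fell and 7 rose with CPM as deposited. Rel, the c-Rel subunit, was at 39.5, 33.8 and 33.6 against 15.3, 15.3 and 15.5 CPM (adjusted p = 1.96e-09). Tgfbr3, betaglycan, a coreceptor for TGF-beta ligands that like the syndecans can carry glycosaminoglycan chains, was at 16.9, 14.7 and 18.2 against 75.7, 68.8 and 73.2 CPM (log2 change 2.07, SE 0.07, adjusted p = 5.13e-15). In the Wnt list 5 of 21 rose and 2 fell, so 33.3% were called, near the 33.1% of all genes. Of the 5 that rose, 2 had a Syndecan-2- mean under 1 CPM. The coreceptor gene Lrp5 went down from replicate values of 77.2, 93.3 and 102 to 39.7, 46.7 and 54.7 CPM.

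In the nucleus, the macroH2A histone gene H2afy (chr13:56073619-56136361), a variant with a large extra domain found on repressed chromatin, fell deeply. It was at 887, 872 and 850 CPM in Syndecan-2-, 682 ± 14.2 CPM (SD, n = 3) in Parent and 187, 205 and 158 CPM in Syndecan-2+ libraries, with a log2 change of -2.25 (SE 0.06, adjusted p = 4.44e-17). The ratio of means was 4.74, and each of its 8 listed transcript models was called lower in the fit of single transcripts. H2afy2, the second macroH2A gene, fell from 2.83 to 0.678 CPM (adjusted p = 0.000123). The linker histone genes H1f0 and H1fx were higher, H1f0 at 31.8, 25.6 and 36.1 against 69.5, 61.2 and 72.1 CPM and H1fx at 17.2, 15.4 and 19.1 against 38.5, 38.8 and 42.0 CPM (adjusted p = 5.76e-11 and 1.56e-10). Over the list 31 of 72 histone genes rose and 4 fell (48.6% called, against 33.1% of all genes), but 20 rose and 8 fell without the 3 replicate 2 libraries. The clustered histone genes among them are near-identical copies whose reads may be split by counting, so their single values are uncertain.

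Chromatin remodellers had 18 of 40 members lower and 4 higher (55.0% called, against 33.1% of all genes), with a median of -0.17. Chd3, a NuRD ATPase, was at 147, 159 and 164 against 70.4, 80.0 and 71.9 CPM, and Arid1a, a BAF subunit, at 389, 396 and 391 against 304, 277 and 270 CPM (adjusted p = 7.24e-12 and 2.69e-07). Smarca2, the BAF ATPase BRM, was higher at 111, 116 and 110 against 176, 171 and 173 CPM (adjusted p = 6.16e-09), as was Arid1b at 215 against 267 CPM. Chd7, a chromodomain remodeller named after its values were seen, was also higher, at 3.96, 4.24 and 3.60 against 7.85, 9.83 and 10.5 CPM (log2 change 1.07, SE 0.15, adjusted p = 6.15e-06). With CPM as deposited 9 members fell and 4 rose. Histone lysine methyltransferases and demethylases had 13 of 54 lower and 3 higher (29.6% called, against 33.1% of all genes). With CPM as deposited 4 were lower and 8 higher, so their direction depends on the scaling. Splicing regulators had 14 of 43 lower and 2 higher (37.2% called), and 5 lower with CPM as deposited.

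Nuclear receptors were called in 20 of 30 cases, 14 higher and 6 lower (66.7%, against 33.1% of all genes). Of the 14, 3 had a Syndecan-2- mean under 1 CPM, and of the 6, 1 had a Syndecan-2+ mean under 1 CPM. Nr4a2, an immediate-early orphan receptor, had Syndecan-2- values of 10.8 to 19.6 CPM and a Syndecan-2+ mean of 42.9 CPM, and Vdr, the vitamin D receptor, at 4.92, 4.36 and 3.82 against 12.3, 10.4 and 14.2 CPM (adjusted p = 4.93e-11 and 3.03e-07). Esr1, oestrogen receptor alpha, was at 34.1, 33.5 and 32.1 against 11.7, 9.74 and 12.1 CPM (adjusted p = 3.28e-11). Without replicate 3 of Syndecan-2+, 9 receptors rose. Circadian clock genes had 9 of 21 higher and 1 lower, Nfil3 (47.6% called). Per1 was at 121, 105 and 168 against 175, 195 and 227 CPM and Per2 and Per3 rose from 9.49 to 14.2 and from 9.68 to 14.8 CPM. No source used here gives the hour at which tissue was taken.

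**Figure D4:**
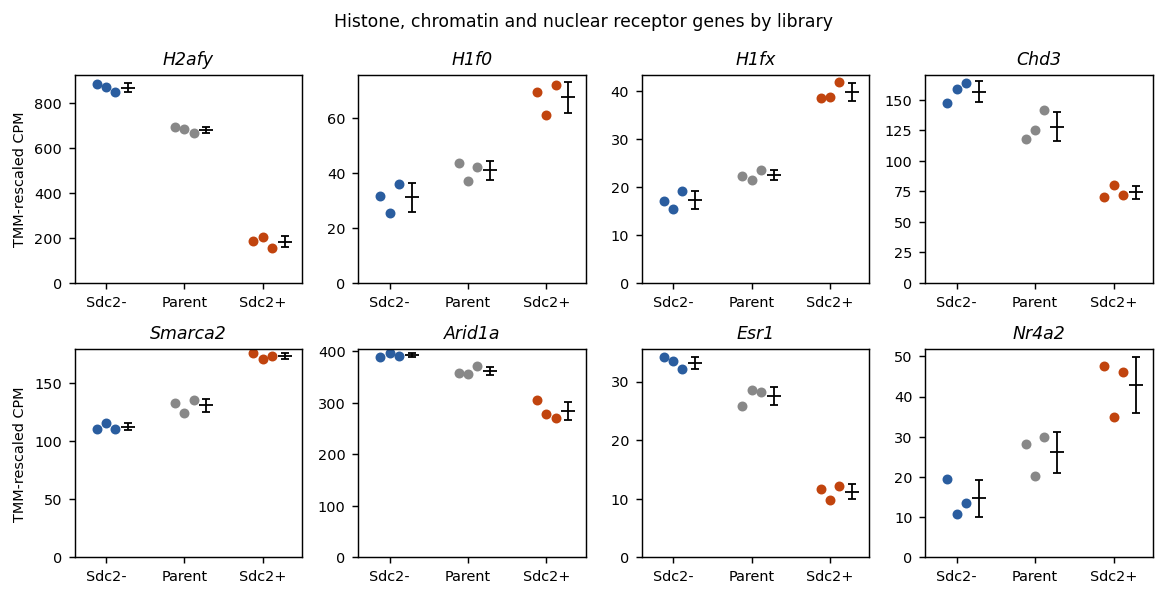
Rescaled CPM by library for H2afy, H1f0, H1fx, Chd3, Smarca2, Arid1a, Esr1 and Nr4a2, with the mean and SD of 3 libraries beside the points and each axis starting at 0. H2afy, Chd3, Arid1a and Esr1 are lowest in the Syndecan-2+ libraries and the other 4 genes highest.

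Lists of protein synthesis and turnover, except TRIM proteins, had a smaller share called in the rescaled values than the 33.1% of all genes. Of 76 mitochondrial ribosomal protein genes 73 were not called (3.95% called), and of 47 proteasome genes 42 were not called (10.6% called). Of 80 cytosolic ribosomal protein genes 12 fell and 2 rose (17.5% called), with a median of -0.05. Translation initiation factors had 5 of 53 higher and 8 lower (24.5% called), and TRIM proteins, many of them ubiquitin ligases, 6 of 41 higher and 10 lower (39.0% called). The sizes of the ribosomal protein changes were small, as for Rpl4 at 676, 676 and 683 against 571, 591 and 605 CPM (log2 change -0.20, adjusted p = 0.00177), and with CPM as deposited 1 ribosomal protein gene was called lower and 10 higher. Of 42 autophagy genes 6 rose and 2 fell (19.0% called), but 17 rose with CPM as deposited. Among the 6 was Optn, an autophagy receptor, at 10.5, 8.19 and 10.2 against 23.5, 20.1 and 19.8 CPM. Zfp-numbered zinc finger genes, the largest list, had 37 of 306 higher and 30 lower (21.9% called).

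Single transcript models were less often called than genes, with 1179 of 31579 higher (3.73%) and 1381 lower (4.37%). Among 6682 genes with at least 2 models tested, 17 (0.254%) had models called in opposite directions, 7 of them with the gene itself called. In 4 genes both models passed 2-fold, did not overlap and reached 5 CPM, and 3 of them are described. Phactr2, a phosphatase and actin regulator, had the widest gap. Its model ENSMUST00000105543, which starts at chr10:13324289 on the minus strand, was at 1.03, 0.962 and 0.0164 CPM in Syndecan-2- and 11.4, 5.23 and 12.9 CPM in Syndecan-2+ libraries (log2 change 2.68, SE 0.39, adjusted p = 0.00420). Its model ENSMUST00000105547, with an upstream start at chr10:13474396, was at 15.1, 20.9 and 16.0 against 7.50, 10.1 and 4.66 CPM (log2 change -1.16, SE 0.20, adjusted p = 0.00985). Another coding model, ENSMUST00000105545, starts nearby at chr10:13324160 and was at 35.9 and 36.0 CPM and not called. The RefSeq promoter window at the downstream start (GRCm38.p6, chr10:13324240-13324539, minus strand, CG dinucleotides in capitals) is shown because the rising model begins in it. The uncalled model begins just downstream of it, so the window does not set the rising model apart.
Phactr2: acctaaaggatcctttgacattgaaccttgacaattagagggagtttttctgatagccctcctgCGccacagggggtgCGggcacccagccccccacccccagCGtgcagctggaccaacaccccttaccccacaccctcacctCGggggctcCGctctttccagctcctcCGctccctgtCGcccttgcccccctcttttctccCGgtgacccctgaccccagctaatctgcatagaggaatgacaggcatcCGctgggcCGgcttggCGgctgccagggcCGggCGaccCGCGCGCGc

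In Acot7, an acyl-CoA thioesterase, the upstream model ENSMUST00000075363, from chr4:152178134, fell from 21.8 ± 6.01 to 8.13 ± 2.91 CPM and the model ENSMUST00000030779, from chr4:152186206, rose from 8.37 ± 1.19 to 20.4 ± 5.36 CPM (SD, n = 3 each; adjusted p = 0.0226 and 0.00904). In Phactr2 and in Acot7 the model with the upstream start was the one that fell. The Traf7 models ENSMUST00000088464 and ENSMUST00000070777 have the same listed ends and differ only inside, and changed from 14.9 to 7.16 and from 2.75 to 7.26 CPM (adjusted p = 0.0295 and 0.0261). Reads were assigned among overlapping models by the authors' counting, so these values are less certain than gene sums. Leaving out any one of the 6 sorted libraries brought the number of genes with opposite models to between 4 and 8.

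**Figure D5:**
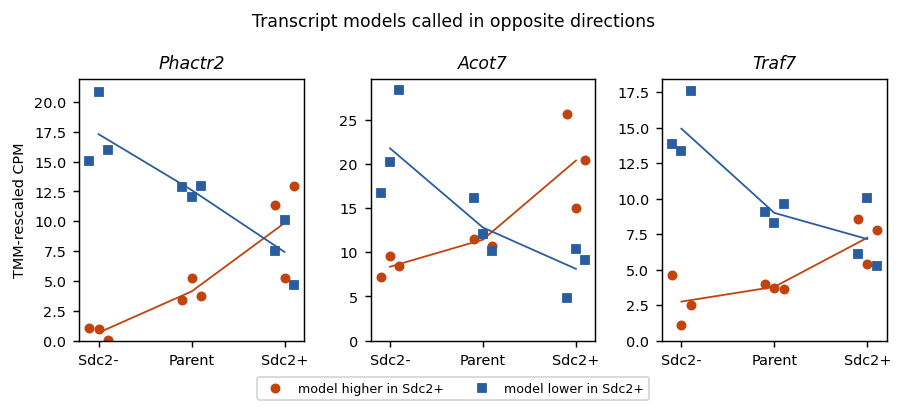
Rescaled CPM of the 2 transcript models called in opposite directions in Phactr2, Acot7 and Traf7, by library, with lines through the means of 3 libraries and axes from 0. In Phactr2 and Acot7 the falling model has the upstream start.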

How the data were processed

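RNA from sorted marrow cells was measured in 9 libraries, 3 each of Parent, Syndecan-2+ and Syndecan-2-. The authors deposited CPM per transcript (58094 models, 20636 gene symbols), with an offset of 0.0001 that was subtracted. STAR, Bowtie2 and GRCm38 are named in the submitters' processing notes, without roles or versions; for counting, strand and the CPM denominator nothing is given in the sources used here. The sum of the deposited CPM is 51.5 to 54.5% of its nominal total. Low values were whole multiples of the smallest step (within 0.1 read) in only 67.7 to 70.1% of cases, so they were not taken as counts and no count test was run. In 20 symbols that stood as calendar dates the names of 21 genes were restored from gene identifiers. Coordinates are the file's, with the end at the listed stop minus 1.

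CPM were summed per symbol, keeping genes that reached 1 CPM in 3 of 9 libraries or more. TMM factors (trims 0.3 and 0.05) were 0.931 to 1.05. limma 3.58.1 in R 4.3.3 (eBayes with trend) was fitted to log2 of rescaled CPM plus 1, all 9 libraries in 1 fit, the replicate number as a block; the code was tested on simulated data. Same-numbered libraries deviated together (r = 0.115 to 0.259 in 9 pairs, -0.205 to 0.00803 in 18 others), and the number was kept as a block. Deviations are from the mean of 3 libraries, so these ranges are not independent of each other. What same-numbered libraries share was not tested. Python 3.11.15, pandas 2.3.3 and matplotlib 3.10.9 made tables and figures.

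The members, lists and rules were chosen with earlier results of these data known. Lists taken by symbol pattern can hold genes of like name only. Named are Sdc2, the 15 largest rises and falls (called, no overlap, at least 5 CPM in one population, not a clone name, outside the usual lists), per list the 3 called members with the smallest p, and up to 6 genes with opposite models; not all are printed, and some genes and 1 gene list are not reported here. Further list members are named as examples, chosen after their values were seen. Promoters were matched by symbol in RefSeq for 5 of 5 genes shown. Alternatives were CPM as deposited, quantile normalization, no block, the 6 sorted libraries alone, other pseudocounts (0.1 and 5) and filters (none, 10 CPM, 5 CPM for transcripts), no trend and each library left out; leaving out the 3 replicate 2 libraries was chosen after seeing the data.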

Additional observations from a re-analysis of the deposited data

How the results depend on the processing

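Of 164 named genes, 151 kept direction and call in all of 20 alternative fits that tested them, none changed direction, and 13 with small changes lost the call in at least 1, such as Mrpl15, Mrps25, Sqstm1 and Rpl4. All but Sdc2 were named for their calls in these same libraries, so the choice itself favoured kept calls and these counts are no independent evidence. Without the replicate block 1992 genes were higher and 1987 lower, and 2 named calls were lost. Against 2291 higher and 2349 lower genes, CPM as deposited gave 3436 and 1551, and without block and rescaling 2874 and 1331. A minimum of 10 CPM gave 1320 and 1753 among 7641 genes tested, fewer by construction. Leaving out 1 library gave 1878 to 2325 higher and 1927 to 2360 lower genes. For transcripts it gave 588 to 707 higher and 745 to 889 lower, and 4 to 8 genes with models in opposite directions, fewer by construction since fewer samples remain. Without the 3 replicate 2 libraries 1959 genes were higher and 2009 lower. The Sdc2 difference kept its direction in every alternative. The cause of the shifts with scaling was not tested. Differences under about 0.2 CPM lie below the reach of 3 reads, and models that share exons are limited by how reads were assigned.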
